A study of Mus musculus with 2 samples.

Results

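Natural killer (NK) cells without CD3 were 272 of the 4839 cells kept from the stromal vascular fraction of mouse gonadal white adipose tissue (gWAT), out of 11252 droplet barcodes. A barcode was kept when 500 or more genes were detected and mitochondrial genes held 10% or less of its UMIs, a UMI (unique molecular identifier) being the tag that marks 1 captured RNA molecule. Cells were then chosen by their UMIs of a few genes. An NK cell without CD3 was one in which Ncr1, Klrb1c, Eomes and Klre1 together held at least 2 UMIs, Cd3d, Cd3e and Cd3g held 0, Cd79a held 0, Dcn held fewer than 10, and C1qa, C1qb and C1qc together held at most 2. The members were selected on these measured values, so the levels of those genes are descriptions. The control library held 229 such cells, 5.90% of 3881 kept cells (exact binomial 95% interval 5.18 to 6.69). The library from Adipo-Pgam1 KO mice held 43, 4.49% of 958 (3.27 to 6.00). These and all later intervals cover counting error only. The intervals of the shares overlapped, and with 1 library per genotype no difference between genotypes was tested.

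The study deleted Pgam1, a glycolytic enzyme gene, in adipocytes, and in other mice in brown fat alone, and asked how brown and white fat respond. Both libraries came from male C57BL/6 mice aged 13 weeks per the labels. The KO mice carried Adipoq-Cre with floxed Pgam1, and the control mice were littermate wildtype by label, described in the study's methods as floxed Pgam1 mice without Cre. The number of mice behind each library is not given in the sources used here. The Adipoq promoter drives Cre in fat cells, so Pgam1 in NK cells checks no label. Fat was digested with collagenase and Dispase, red cells were lysed, and the cells were run on the 10x 3′ v3 kit. Library, sequencing depth and genotype cannot be told apart in any comparison between the libraries.

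NK cells are innate lymphocytes that kill infected or transformed cells without a rearranged antigen receptor. Activating receptors such as NKp46 (Ncr1), NK1.1 (Klrb1c) and NKG2D (Klrk1) signal through adaptors with ITAM or related motifs, while Ly49 and NKG2A receptors read MHC class I on the target and restrain killing. Killing itself uses perforin and granzymes from secretory granules, and NK cells also release interferon gamma and chemokines. In mouse, maturation runs from CD27-high to CD11b-high cells, and tissues also hold type 1 innate lymphoid cells (ILC1), which share NK1.1 and NKp46 but depend less on Eomes. In fat, both kinds of cell are known from studies of obesity and inflammation.

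Most cells were far inside the rule. The sum of the 4 rule genes had a median of 10 UMIs in the control library and 15 in the KO library, with highest values of 37 and 29. Klrb1c was found in 208 of 229 control cells and 43 of 43 KO cells, Klre1 in 200 and 42, Ncr1 in 185 and 39, and Eomes in 130 and 27. All 4 genes were found together in 88 control and 24 KO cells. At the edge, the control library held 11 cells with a sum of 2, 11 with 3 and 207 with 4 or more, while all 43 KO cells had 4 or more. The 37 control cells with a sum of 1, just outside, held Gzma in 2.70%, Nkg7 in 10.8%, Klrd1 in 45.9% and Cd74 in 73.0%. The 11 cells with a sum of 2, just inside, held Gzma in 18.2%, Nkg7 in 45.5%, Klrd1 in 81.8% and Cd74 in 72.7%. Lyz2, a macrophage-listed gene, was found in 67.6% of the cells with a sum of 1 and 63.6% of those with 2. Median depths of these 2 groups were 12131 and 11926 UMIs, against 4199 in all control NK cells without CD3. Among all kept cells with a sum of at least 2, 438 in control and 111 in the KO library, a CD3 UMI set aside 179 and 68, of which 10 and 2 rested on 1 CD3 UMI.

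The markers of the label were present, and some T cell receptor constant genes were found in many of the cells. Gzma (granzyme A) and Klra8 (Ly49H), which the rule did not use, stood at 2776 and 676 CPM in the control library, where CPM is the UMIs of a gene summed over the cells as parts of 1000000 of all their UMIs. In the KO library they stood at 3259 and 553 CPM. Cd3d, Cd3e and Cd3g were at 0 by rule, and Cd8b1, Cd5 and Cd6 were at 0 in both libraries without being asked. Trac, the constant gene of the T cell receptor alpha chain, was found in 7 control cells (3.06%) and 1 KO cell (2.33%), against 69.6% and 82.1% of CD3 positive cells that pass the same limits. Trbc1 was found in 77.7% and 93.0% of the NK cells, Trbc2 in 33.6% and 48.8%, and Trdc in 25.8% and 34.9%. The 4 listed genes of type 3 innate lymphoid cells were at 0 in both libraries. Summed levels were 691 and 1180 CPM for the 12 T cell genes, 289 and 261 CPM for 8 genes of type 2 innate lymphoid cells, 417 and 69.2 CPM for 9 macrophage genes, 702 and 380 CPM for 7 fibroblast genes, 771 and 96.1 CPM for 6 endothelial genes, and 5578 and 223 CPM for 7 dendritic cell genes. The T cell list holds Cd3d, Cd3e and Cd3g, the macrophage list C1qa, C1qb and C1qc, and the fibroblast list Dcn. The rule held these genes at 0 or low, so the sums of those lists were limited in part by selection. Adipocyte genes held 3 UMIs in control and 0 in the KO library.

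A few control cells stood apart. In 13 of them the MHC class II genes H2-Aa, H2-Ab1, H2-Eb1 and Cd74 together held at least 15 UMIs, from 28 to 980 with a median of 354, against a median of 1 in the other control cells. They held 95.5% of the MHC class II UMIs and 14.1% of all UMIs of the control NK cells. Their median depth was 13775 UMIs, against 4102 in the other control NK cells. Of these 13 cells, 8 had a rule sum of 2 or 3, 12 held Klrd1, 7 held Nkg7, 6 held Gzma and 10 held Itgax, an integrin gene of dendritic cells that was also found in 52.0% of all control NK cells. No KO cell held more than 2 MHC class II UMIs. Separately, 9 control cells and 1 KO cell held at least 100 haemoglobin UMIs and carried 92.7% and 84.3% of the haemoglobin UMIs. Results are given with the 13 cells, and without them where stated. No barcode of an NK cell occurred in both libraries, among 9 barcodes that did.

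Promoters of genes that mark and arm these cells are shown because they share a short motif. Runx factors are known to bind around TGTGGT, and Runx3, a regulator of NK development, stood at 226 CPM in control and 292 CPM in the KO cells, in 63.3% and 79.1% of cells. The 150 bases before the RefSeq start (GRCm38.p6) are printed 5′ to 3′ on the gene's strand, with TGTGGT or its other-strand reading ACCACA in capitals. They lie at chr7:4337565-4337714 (plus strand) for Ncr1, chr6:128788642-128788791 (minus strand) for Klrb1c, chr10:61297686-61297835 (plus strand) for Prf1, chr13:113100982-113101131 (minus strand) for Gzma and chr14:56262335-56262484 (minus strand) for Gzmb.
Ncr1 promoter: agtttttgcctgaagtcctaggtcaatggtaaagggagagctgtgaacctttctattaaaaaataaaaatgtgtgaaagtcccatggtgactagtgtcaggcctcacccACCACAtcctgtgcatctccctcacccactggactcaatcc
Klrb1c promoter: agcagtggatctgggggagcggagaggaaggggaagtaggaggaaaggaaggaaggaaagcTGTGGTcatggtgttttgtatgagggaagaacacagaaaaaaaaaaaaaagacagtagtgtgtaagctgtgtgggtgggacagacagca
Prf1 promoter: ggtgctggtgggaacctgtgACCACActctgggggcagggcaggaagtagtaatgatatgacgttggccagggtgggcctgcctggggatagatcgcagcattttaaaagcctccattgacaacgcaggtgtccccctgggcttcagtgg
Gzma promoter: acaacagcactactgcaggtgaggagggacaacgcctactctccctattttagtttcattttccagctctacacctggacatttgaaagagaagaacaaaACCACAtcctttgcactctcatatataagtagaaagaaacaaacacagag
Gzmb promoter: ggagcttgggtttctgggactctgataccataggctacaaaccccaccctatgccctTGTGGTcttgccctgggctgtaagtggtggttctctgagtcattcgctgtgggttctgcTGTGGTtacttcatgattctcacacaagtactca
The motif began 41 bases before the start of Ncr1, 89 before Klrb1c, 130 before Prf1 (perforin), 50 before Gzma, and 93 and 34 before Gzmb (granzyme B). It was present on either strand in 15 of 33 genes (45.5%) of the identity, activating receptor, lectin receptor and granule lists that had a promoter, in 0 of 11 Ly49 genes, and in 2306 of 27025 promoters of the same length in all (8.53%). A match describes letters in this window and does not show binding.

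Adaptors and activating receptors stood at similar levels in the libraries. Tyrobp (DAP12), which passes signals from Ly49H and NKG2C, stood at 1791 CPM in control and 1818 CPM in the KO cells. Fcer1g, an adaptor of NKp46 and CD16, stood at 1446 and 1579 CPM. Hcst (DAP10), the adaptor of NKG2D, stood at 682 and 623 CPM. Klrk1 (NKG2D) was detected in 96.1% of cells in control and 100% in KO, at 1049 and 1222 CPM. The Tec kinase gene Txk stood at 631 and 826 CPM and Lck at 267 and 350 CPM. Against all other kept cells of the same library, the median log2 ratio was 2.12 over 18 adaptor and signalling genes in the control library and 1.77 in the KO library, and 3.06 and 2.88 over 14 activating receptors, 2 of them rule genes. The same median over all genes was 0.12 and 0.39. Beside those levels, Klrd1 (CD94) stood at 766 and 907 CPM and its partners Klrc1 (NKG2A) at 396 and 357 CPM and Klrc2 (NKG2C) at 538 and 826 CPM. Klrc1 and Klrc2 are close in sequence, as are Ly49 genes and granzyme genes among themselves, so the split of UMIs between such paralogs is uncertain.

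**Figure D1:**
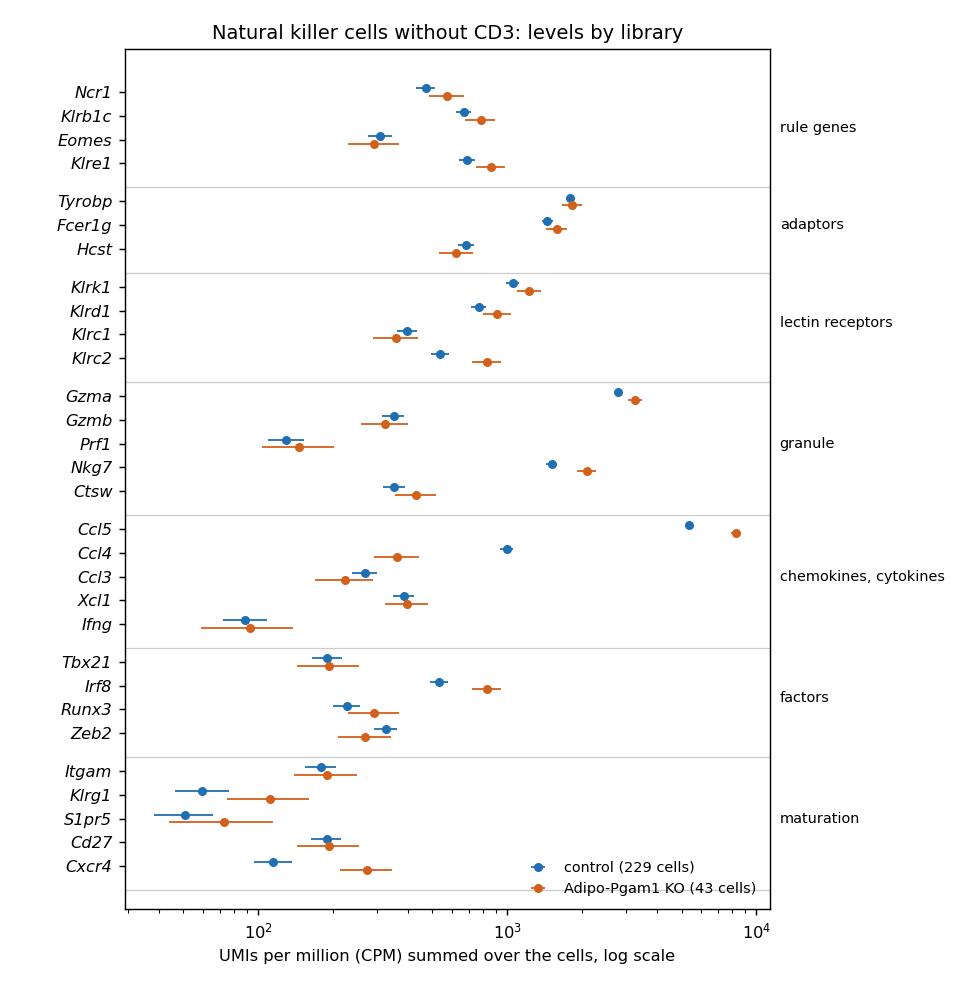
Levels of named genes in NK cells without CD3, as CPM summed over the cells on a log axis, for the control (blue, 229 cells) and Adipo-Pgam1 KO library (orange, 43 cells). Bars are exact Poisson 95% intervals and cover counting error only. Ccl5 holds the most UMIs of the genes drawn in each library, Ccl4 is lower in the KO library (994 against 361 CPM), and most other pairs of intervals lie close together.

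Ly49 receptors, encoded side by side on chromosome 6 (chr6:129831154-131247362 for the 11 genes listed, build GRCm38), were each found in part of the cells. Klra9 was detected in 62.9% of cells in control and 51.2% in KO, Klra8 in 49.3% and 46.5%, Klra7 in 40.6% and 41.9%, Klra4 in 33.2% and 39.5%, and Klra3 in 20.1% and 34.9%. Thinned to 2000 UMIs a cell (212 control and 42 KO cells remained), the shares were 49.5% and 40.5% for Klra9, 42.9% and 35.7% for Klra8, 31.6% and 31.0% for Klra7, 28.8% and 40.5% for Klra4, and 13.2% and 28.6% for Klra3. Klra1 was found in 10.5% and 14.0% of cells and Klra6 in 4.80% and 6.98%. Cells rich in Dcn and without the 4 rule genes, which should lack these receptors, held each of these 7 genes in at most 1.53%, at median depths of 11724 and 14733 UMIs against 4199 and 5792 in the NK cells. Klra2 was found in 0 of 229 and 0 of 43 cells, which allows shares up to 1.60% and 8.22%.

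Single cells held several Ly49 genes at once. The median was 2 in each library, with a mean of 2.26 in control and 2.51 in the KO cells, or 1.78 and 1.98 after thinning. No Ly49 gene was found in 33 control cells (14.4%) and 3 KO cells (6.98%), and 3 genes were found in 54 control cells (23.6%). Of the 113 control cells with Klra8, 80 also held Klra9, 63 held Klra7, 58 of the 76 cells with Klra4 were among them, and so were 34 of the 46 with Klra3. Klra8 encodes the activating receptor Ly49H and Klra4 the activating Ly49D, and the others named are mostly inhibitory. By summed level, Klra7 stood at 259 CPM in control and 500 CPM in the KO cells (log2 ratio KO over control 0.95, 95% interval 0.64 to 1.25), and Klra3 at 111 and 219 CPM (0.98, 0.50 to 1.44). Klra8 and Klra9 were lower in the KO cells, at -0.29 (-0.56 to -0.03) and -0.39 (-0.71 to -0.09). None of the 8 Ly49 genes with at least 10 UMIs was 2-fold apart between the libraries. Of all genes at that depth 4.31% were higher and 6.02% lower, so for a list of 8 this count lies near that background.

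**Figure D2:**
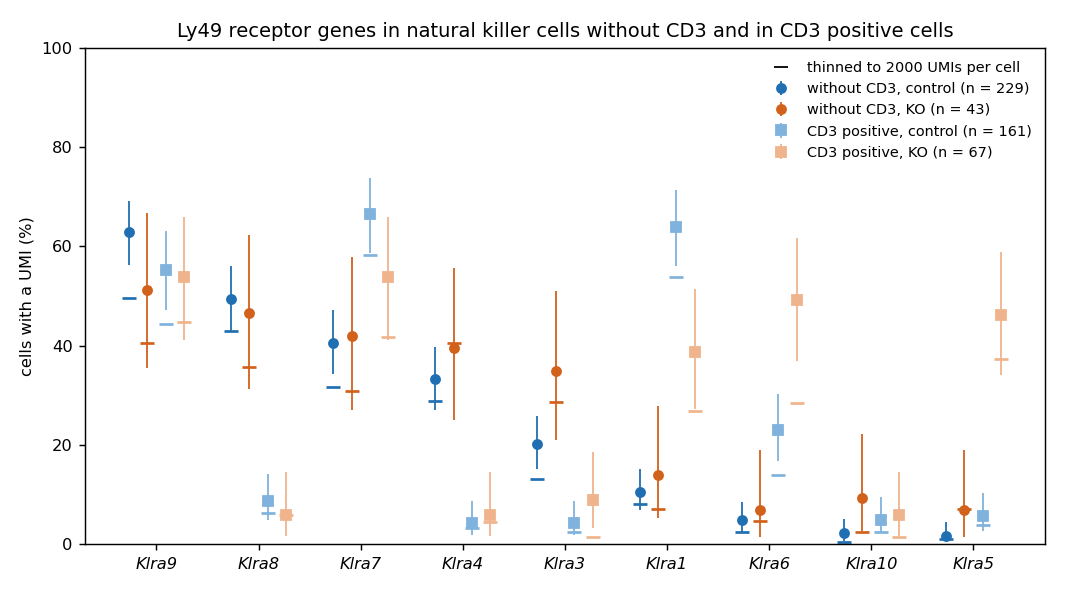
Percent of cells with a UMI of each Ly49 gene in NK cells without CD3 (circles) and CD3 positive cells with NK receptors (squares), for the control (blue) and KO library (orange). Bars are exact binomial 95% intervals and dashes the value after thinning to 2000 UMIs a cell. Klra8, Klra4 and Klra3 are more frequent in the cells without CD3 in both libraries, Klra1 and Klra6 in the CD3 positive cells.

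Granule genes were led by Gzma, detected in 69.9% of control cells and in 69.8% of KO cells (66.0% and 66.7% after thinning), against 1.88% and 1.92% of Dcn-rich cells. Gzmb stood at 349 CPM in control and 323 CPM in the KO cells and was found in 33.6% and 48.8% of cells, or 25% and 35.7% after thinning. Prf1, the pore former, stood at 129 and 146 CPM. Nkg7, a granule membrane protein, stood at 1504 and 2079 CPM, a log2 ratio of 0.47 (0.32 to 0.61) that was 0.29 without the 13 cells. Serpinb9, which protects the killer from its own granzyme B, stood at 317 and 488 CPM (0.62, 0.32 to 0.92), and Serpinb6b at 192 and 365 CPM (0.93, 0.57 to 1.29). Lamp1, a lysosome protein, was lower, at 136 and 76.9 CPM (-0.82, -1.57 to -0.14). The median over 15 granule genes was 0.23, and 0.11 without the 13 cells, against 0.00 over all genes. Gzmc, named after its values were seen since it held under 50 UMIs, had 5 UMIs in control and 12 in the KO cells. Of the 15 granule genes it alone was 2-fold apart, beside 4.31% higher and 6.02% lower of all genes with at least 10 UMIs.

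Chemokines and cytokines split by gene. Ccl5 was detected in 96.9% of cells in control and 100% in KO and stood at 5346 and 8254 CPM (log2 ratio 0.63, 0.55 to 0.70, and 0.44 without the 13 cells). Ccl4 stood at 994 and 361 CPM (-1.46, -1.78 to -1.16). Its UMIs sat in few cells, 75.0% in 10 control cells and 75.5% in 10 KO cells, with up to 241 in 1 control cell and 30 in 1 KO cell. The share of cells with Ccl4 was 45.4% in control and 60.5% in the KO library, or 32.1% and 28.6% after thinning. Ccl3, Xcl1 and Ifng differed less, at 268 and 223, 383 and 396, and 88.6 and 92.2 CPM. Tgfb1 stood at 135 and 200 CPM (0.57, 0.08 to 1.03). Ccl3, Ccl4 and Ccl5 attract other leukocytes, Xcl1 attracts cross-presenting dendritic cells, and Ifng encodes interferon gamma.

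Of 23 transcription factor genes with at least 10 UMIs, 1 was 2-fold higher in the KO cells and 0 lower (2 and 0 without the 13 cells), with a median of 0.02. The 1 was Nfil3, an early NK factor, with 32 and 17 UMIs, named after its values were seen. Of all genes at that depth 4.31% were higher and 6.02% lower, so the count lies near that background. The list holds the rule gene Eomes. Tbx21 (T-bet) stood at 189 CPM in control and 192 CPM in the KO cells, Id2 at 1447 and 1318 CPM, and Zeb2, a factor of late maturation, at 325 and 269 CPM. Irf8 stood at 532 and 826 CPM (0.63, 0.40 to 0.86, and 0.47 without the 13 cells) and Irf2 at 128 and 254 CPM (0.98, 0.54 to 1.41, and 1.08). Stat4, which relays interleukin-12, stood at 243 and 342 CPM (0.49, 0.13 to 0.84). Among receptors for cytokines, Il2rb, the shared chain for interleukin-2 and interleukin-15, stood at 555 and 711 CPM, Il18rap at 518 and 480 CPM, and Ifngr1 at 631 and 1076 CPM (0.77, 0.56 to 0.97).

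Cells that pass the same limits but hold a CD3 UMI were the closest comparison, 161 in control and 67 in the KO library, with median depths of 4659 and 6730 UMIs. They are a mixed set: in the control library 69.6% held Trac, 19.3% Tcrg-C2 and 14.3% Trdc, and in the KO library 82.1%, 40.3% and 11.9%. In the control library 208 of 5496 genes with at least 50 UMIs (3.78%) were at least 2-fold higher in the cells without CD3 and 88 (1.6%) at least 2-fold lower, genes of the rule left out. Of 42 such higher genes that could also be tested in the KO library, 30 were 2-fold higher there too, as were 32 of 41 on the lower side, and 0 went opposite ways. Without cells rich in MHC class II, 146 of 5150 genes were higher and 81 lower in the control library, and 32 of 46 and 29 of 37 were past 2-fold the same way in the KO library. All these values describe groups cut by CD3, so receptor genes of T cells differ by construction.

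Named genes higher in the cells without CD3 included receptors, killing genes and homing genes. Itgam (CD11b, the record ENSMUSG00000030786) had the largest value among genes tested in both libraries, a log2 ratio of 4.18 in control and 3.57 in the KO library. Klra8 stood at 3.61 and 2.77, Klrb1b at 3.13 and 2.85, Klra4 at 2.77 and 3.33, Klri2 at 2.24 and 2.65, and Klra3 at 2.18 and 2.88. Gzma stood at 2.07 and 1.94, Prf1 at 1.86 and 2.03, and Serpinb9 at 1.99 and 2.36. Ccr2, a chemokine receptor for entry into inflamed tissue, stood at 1.32 and 1.89, and S1pr5, which guides NK cells out of tissue, at 2.04 and 2.39. Ccl3 (2.25 and 1.49), the platelet and leukocyte kinase substrate Plek (2.13 and 1.95), the kinase gene Syk (2.03 and 2.54), the mast cell protease gene Cma1 (3.82 and 3.86) and Irf8 (1.80 and 2.51) went the same way. Of the 7 late maturation genes, 3 were 2-fold higher and 0 lower in the control library, with a median of 1.0. Over all genes with at least 10 UMIs, the background for such lists, 8.27% were 2-fold higher and 4.95% lower with a median of 0.04. Genes of other cells were higher too in the control library: 5 of 7 dendritic genes (median 2.31, or 0.22 without cells rich in MHC class II), 5 of 8 macrophage genes (1.16, or 0.17) and 4 of 6 endothelial genes (1.28, or 1.49). In the KO library 0 of 5, 0 of 2 and 0 of 2 were 2-fold apart, and the part of such RNA was not tested. The dendritic list holds the MHC class II genes by which the removed cells were picked, so its drop follows in part from that choice.

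Genes lower in the cells without CD3 included more than T cell receptor genes. Trac held 7 and 1 UMIs in the cells without CD3, Tcrg-C2 0 and 1, and Cd8b1 0 and 0. Trbc2 stood at -2.58 in control and -1.96 in the KO library. The Ly49 genes Klra1 (-3.89 and -2.11) and Klra6 (-2.65 and -3.51) were lower, in contrast to Klra8 and Klra4. Ikzf2 (Helios) stood at -2.88 and -2.76, Itga1 (CD49a, a collagen-binding integrin of resident lymphocytes) at -2.55 and -2.10, Gramd3 at -2.85 and -1.88, Cd160 at -1.88 and -2.15, and Cxcr6 at -1.40 and -1.49. Nusap1, a mitotic spindle gene, held 9 and 0 UMIs in the cells without CD3. Of 13 cell cycle genes in the control library 6 were 2-fold lower and 0 higher. The median over 12 ILC1 genes was -0.74, with 5 lower and 2 higher, and over 12 MHC class I genes -0.43, with 1 lower. Among all genes with at least 10 UMIs in that comparison, 8.27% were 2-fold higher and 4.95% lower. The MHC class I count lies near that background.

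**Figure D3:**
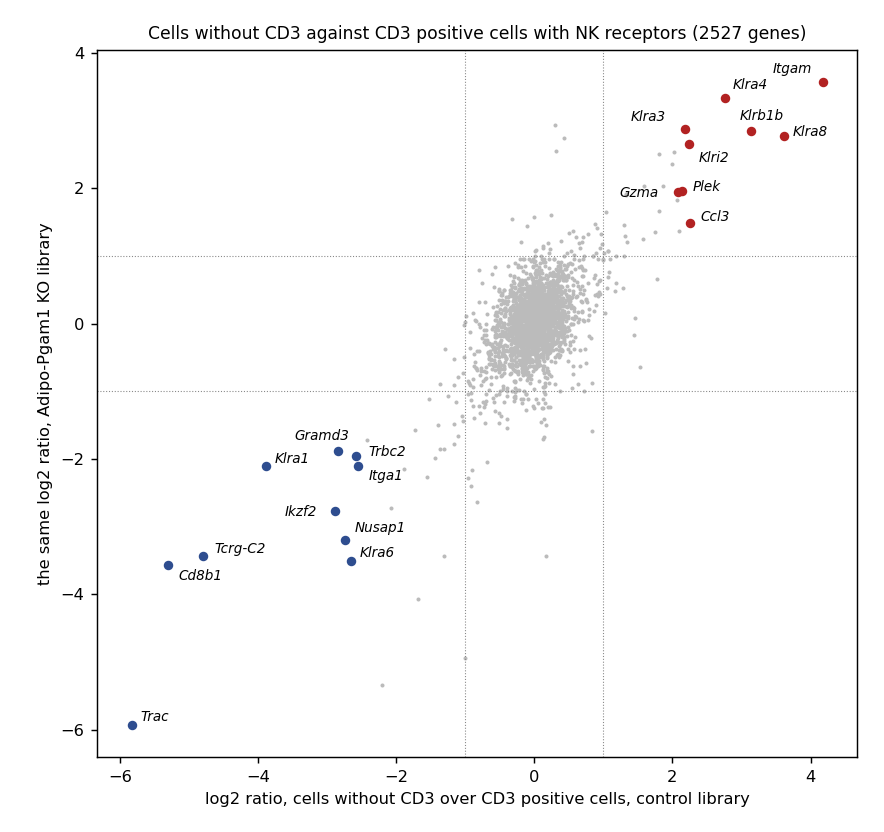
Log2 ratio of NK cells without CD3 over CD3 positive cells with NK receptors in the control library (x axis) and in the KO library (y axis), for the 2527 genes tested in both, with counts under 3 set to 3. Dotted lines mark 2-fold, and the named genes are most above (red) or most below (blue) in the control library among those past 2-fold the same way in the KO library. That choice places them in the upper right and lower left. No gene drawn is past 2-fold in opposite directions.

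The cells without CD3 were not uniform in Eomes. In the control library 99 cells held no Eomes UMI and 130 held at least 1, and in the KO library 16 and 27. Median depths were 4444 and 4068.5 UMIs in control and 5798 and 5272 UMIs in the KO library, and 4327 and 4035 UMIs in the control library without the 13 cells, which left 89 and 127 cells. In the control library 105 of 3723 genes (2.82%) were at least 2-fold higher in the cells without an Eomes UMI and 65 (1.75%) at least 2-fold lower, and without the 13 cells rich in MHC class II 51 and 46 of 3261. A cell with 0 Eomes UMIs may still express Eomes, so the split is by UMIs and not by type.

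ILC1-listed genes were mostly higher in the cells without an Eomes UMI. Of 12 such genes with at least 10 UMIs, 10 were 2-fold higher and 0 lower in the control library, with a median log2 ratio of 2.04 (1.98 without the 13 cells), where 7.46% of all genes at that depth were higher and 5.82% lower. In the KO library 7 of 10 were higher and 0 lower, with a median of 1.65, where 7.66% of all genes were higher and 8.98% lower. Cxcr6, a receptor that holds lymphocytes in tissue, had 55 UMIs in the cells without and 8 in the cells with Eomes in the control library (2.91, 1.83 to 4.19), and 18 and 2 UMIs in the KO library. Tmem176b stood at 3.64 in control and 2.36 in the KO library, Rora at 1.62 and 2.02, and Inpp4b at 2.85 in the control. Il7r and Rgs1 stood at 1.71 and 1.46 in the control library, against 0.28 and -0.52 in the KO library. Itga1 (1.49 in the control, and 7 against 0 UMIs in the KO library), Tnfsf10 (TRAIL, 2.37 and 1.02) and Cd200r1 (2.38 and 1.28) held under 50 UMIs and were named after their values were seen. A UMI of Cxcr6 or Itga1 was found in 32 of the 99 control cells without and 8 of the 130 with Eomes, and in 7 of 16 and 2 of 27 KO cells. Dendritic-listed genes moved with the same split, 5 of 6 of them 2-fold higher with a median of 2.24, or 0.42 without the 13 cells. That list holds the MHC class II genes by which the 13 cells were set aside, so its drop follows in part from that choice. Of 5 ILC2-listed genes, 3 were 2-fold higher and 0 lower in the control library, with a median of 1.62 (1.68 without the 13 cells). They were Il1rl1 (25 and 3 UMIs), Il2ra (21 and 5 UMIs) and Rora, which the ILC1 list also holds, the first 2 named after their values were seen. The 4 erythroid genes were all 2-fold lower in the KO cells without Eomes, with a median of -3.38, and had a median of 0.68 in the control. In the KO library 1 cell held 84.3% of the haemoglobin UMIs, and in the control 9 cells held 92.7%. These medians thus rest mostly on the side of the split where those few cells fell. The part of ILC2-listed and erythroid RNA in this split was not tested.

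Ly49 genes went the other way. Of 8 with at least 10 UMIs, 7 were 2-fold lower and 0 higher in the control cells without an Eomes UMI, with a median of -2.13 (-1.84 without the 13 cells), and 4 of 6 were lower and 1 higher in the KO library. Klra4 stood at -2.29 in control and -1.95 in the KO library, Klra8 at -2.16 and -1.55, Klra3 at -1.92 and -2.39, and Klra7 at -1.61 and -2.89. Klra9 was the exception, at -0.38 and 1.25. Klri2 (-1.37 and -3.42) was also lower, and Gzma at -0.91 and -1.02 (-0.63 in the control without the 13 cells) and Irf8 at -0.92 and -0.99 were near 2-fold lower. Tbx21 (0.17 and -0.26) was close in both. Ccl3 and Ccl4 were lower in the control cells without Eomes (-1.52 and -1.36) and higher in those of the KO library (1.52 and 1.39), and that difference was not tested.

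Maturation genes gave a second axis. A cell was called early-listed when it held more UMIs of 8 early genes (Cd27, Tcf7, Ltb, Il7r, Emb, Thy1, Cxcr3 and Kit) than of 7 late genes (Itgam, Klrg1, S1pr5, Zeb2, Cma1, Cx3cr1 and Ly6c2), and late-listed in the reverse case. The control library held 73 early-listed and 144 late-listed cells and 12 ties, the KO library 19, 23 and 1. A difference of at most 1 UMI placed 35 control and 2 KO cells near the cut, so these are ends of a range. Apart from the 15 listed genes, 38 of 3621 genes (1.05%) were 2-fold higher in early-listed control cells and 90 (2.49%) 2-fold lower, or 35 and 46 of 3145 without the 13 cells. Over genes with at least 10 UMIs the shares were 4.95% and 6.75%.

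Some granule, chemokine and cytokine genes were higher in late-listed cells. On the early over late scale, Gzmb stood at -2.98 in control and -1.91 in the KO library, Gzma at -1.67 and -2.48, and Prf1 at -1.59 and -1.71. Ccl3 stood at -1.72 and -3.98, Ccl4 at -1.44 and -1.54, Ifng at -1.42 and -1.51, and Irf8 at -1.38 and -1.72. Ccl5 (-0.42 and -1.41), Fasl (-0.28 and -1.93) and Nkg7 (-0.18 and -0.66) differed less in the control library. Early-listed cells held more Cd160 (1.15 and 1.51) and Cxcr4 (1.14 and 0.74), while Klrk1 (0.34 and 0.16) and Tbx21 (-0.12 and -0.46) were near level. Of 14 granule genes 3 were 2-fold lower in early-listed control cells, as were 3 of 7 chemokine and cytokine genes and 6 of 10 cell cycle genes, and 0 in these lists were 2-fold higher. Of all genes at that depth 6.75% were lower and 4.95% higher. In the KO library 3 of 14 granule genes were lower and 1 higher, and 4 of 6 chemokine and cytokine genes lower and 0 higher, where 10.2% of all genes were lower and 7.75% higher. Of 3 cell cycle genes there, 0 were 2-fold apart, with a median of 0.42 against -1.24 in control. Cell cycle UMIs sat in few control cells, with 98.3% of those of Top2a in 10 cells. Dendritic-listed genes were 2-fold lower in early-listed control cells in 3 of 6 cases (median -0.94, or -0.04 without the 13 cells). As that list holds the MHC class II genes that picked the 13 cells, the change follows in part from their removal. The 4 erythroid genes were all 2-fold higher in early-listed KO cells (median 3.08) and 3 of 4 in the control (median 1.06), and their part was not tested. Those medians rest mostly on few cells, as 1 KO cell held 84.3% and 9 control cells 92.7% of the haemoglobin UMIs. Median depth was 4413 UMIs in early-listed and 4157.5 UMIs in late-listed control cells, and 6854 and 5074 UMIs in those of the KO library.

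**Figure D4:**
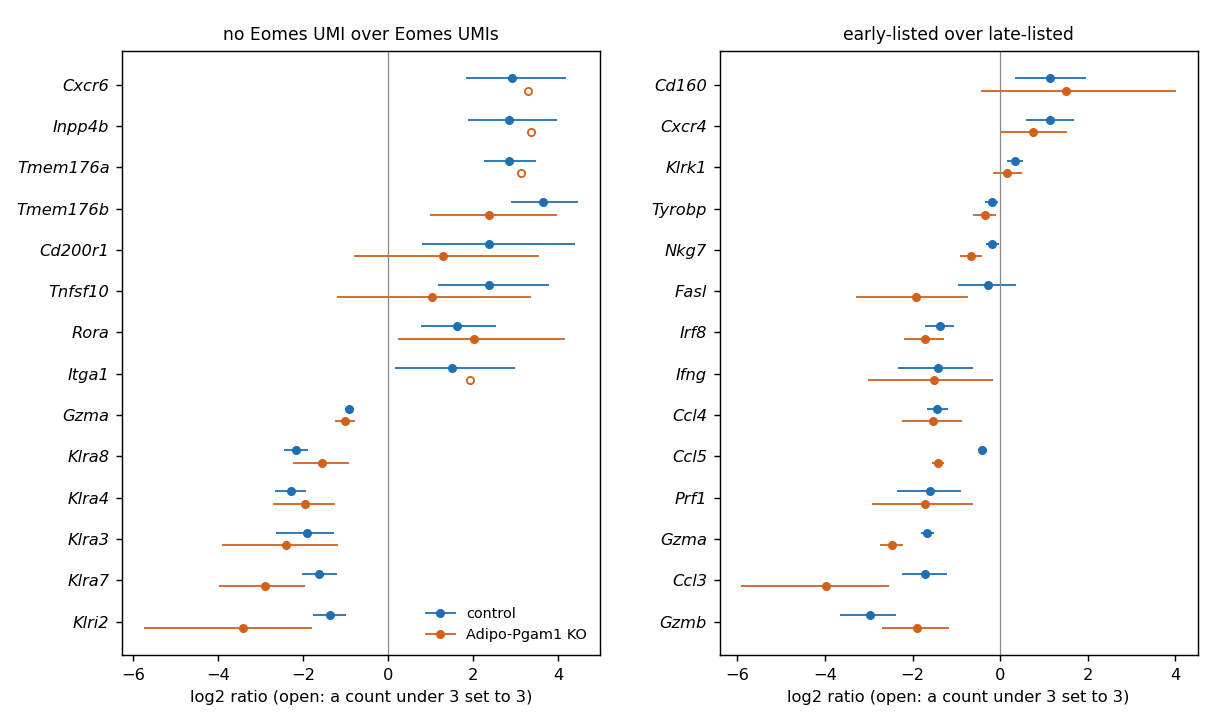
Log2 ratios within NK cells without CD3, for cells with no Eomes UMI over cells with Eomes UMIs (left) and early-listed over late-listed cells (right), in the control (blue) and KO library (orange). Bars are 95% counting intervals, and open points had a count under 3 set to 3. In the left panel the ILC1-listed genes drawn lie right of 0 and the 4 Ly49 genes drawn left of 0 (Klra9, at -0.38 and 1.25, is not drawn), and in the right panel the granule and chemokine genes drawn lie left of 0.

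Between the libraries, 45 of 4399 genes with at least 50 UMIs (1.02%) were at least 2-fold higher in the KO cells and 238 (5.41%) at least 2-fold lower, with a median log2 ratio of -0.01. All 45 higher genes and 186 of the lower ones had an interval that left out 0. With these depths and at least 50 UMIs, every 2-fold rise has such an interval, so the higher count adds nothing to the calls. Without the 13 cells rich in MHC class II, 27 of 3984 (0.678%) were higher and 146 (3.66%) lower, and 24 and 120 of these were the same genes. Of the 238 lower genes, 81 were at least 2-fold lower in the NK cells than in all other kept control cells (202 of all 4399), and 44 had at least 25% of their control UMIs in 1 cell (54 of all 4399). Of the 45 higher genes, 0 were of either kind, and 10 were at least 2-fold above all other kept cells in both libraries (559 of all 4399), as were 6 of the 238. Over genes with at least 10 UMIs, 4.31% were 2-fold higher and 6.02% lower.

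The highest log2 ratio among the 45 genes was that of Vps37b. Vps37b, an endosomal sorting subunit, stood at 212 CPM in control and 788 CPM in the KO cells (1.89, 1.61 to 2.17, and 1.70 without the 13 cells), in 53.7% and 95.3% of cells. Fosl2, an AP-1 factor, stood at 58.8 and 177 CPM (1.59, 1.01 to 2.16). Erdr1 (1.83), Gm11808 (1.63), Gm37387 (1.60), Grcc10 (1.58), Usp15 (1.53), Skiv2l2 (1.37), Iqsec1 (1.32) and Oxr1 (1.30) completed the 10. Among listed genes, Cxcr4, the receptor that retains lymphocytes in marrow and tissue, stood at 115 and 273 CPM (1.25, 0.81 to 1.68). Emb stood at 99.4 and 234 CPM (1.24, 0.76 to 1.70), and the co-chaperone gene Dnaja1 at 205 and 423 CPM (1.04, 0.70 to 1.38). Rgs1, a brake on chemokine receptors, stood at 118 and 231 CPM (0.97, 0.51 to 1.42). Klrg1 stood at 59.7 and 111 CPM (0.90, 0.22 to 1.55).

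The largest values on the lower side were led by MHC class II genes, the antigen presentation genes of dendritic cells, macrophages and B cells. H2-Aa had 1103 UMIs in control and 3 in the KO cells, Cd74 2494 and 10, H2-Eb1 841 and 4, and H2-Ab1 935 and 9. Without the 13 cells the log2 ratio of H2-Aa was -2.01 instead of -6.43 and that of Cd74 -1.27 instead of -5.87. Retnla (549 and 4 UMIs), Ifitm3 (215 and 1), Gm2a (191 and 3) and Marcks (188 and 1) were among the 10. Fabp4, a lipid carrier of endothelial and fat cells, had 657 and 10 UMIs, 450 of them in 1 control cell, and Ccl21a 248 and 0, 244 of them in 1 control cell. The 6 dendritic-listed genes with at least 10 UMIs were all 2-fold lower in the KO cells, as were 4 of 6 endothelial, 3 of 7 fibroblast and 2 of 8 macrophage genes. Of all genes at that depth 6.02% were lower. These counts include the 13 cells, and the dendritic list holds the 4 MHC class II genes that set those cells apart. The fibroblast list holds Dcn and the macrophage list C1qa, C1qb and C1qc, which the rule limits. The part of RNA from other cells in the 238 lower genes was not tested beyond these counts.

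**Figure D5:**
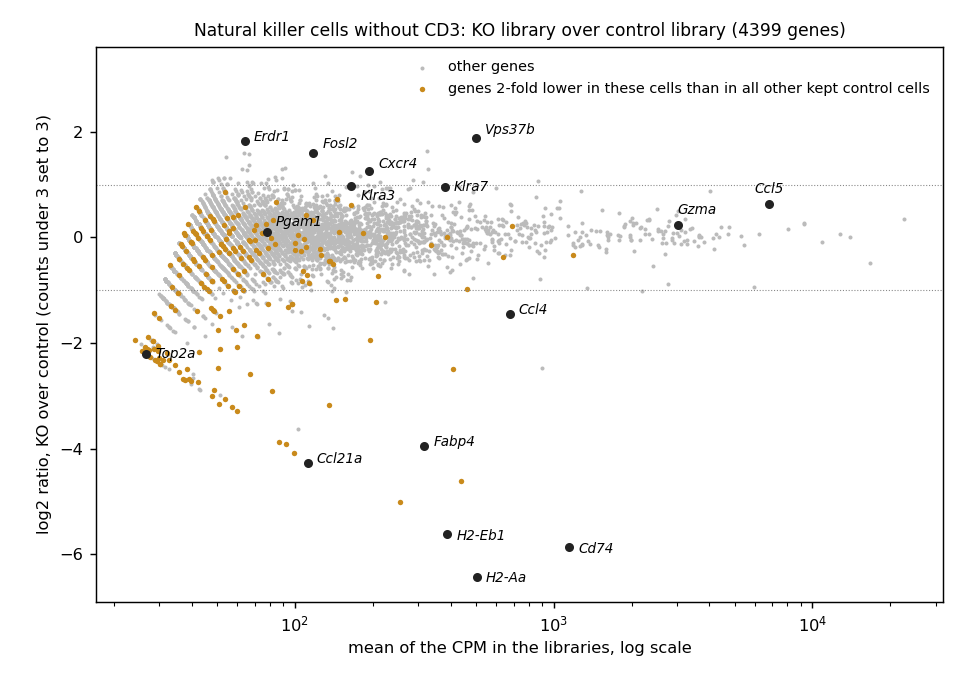
Log2 ratio of the KO over the control library in NK cells without CD3 (y axis, counts under 3 set to 3) against the mean CPM of the libraries (x axis, log scale), 1 point for each of 4399 genes. Orange points are genes at least 2-fold lower in these cells than in all other kept control cells, and dotted lines mark 2-fold. Orange points are frequent below the lower line (81 of 238) and absent above the upper one (0 of 45).

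Genes of the NK lists 2-fold apart between the libraries were counted beside all genes with at least 10 UMIs, of which 4.31% were higher and 6.02% lower. At that depth, 0 of 14 activating receptors, 0 of 8 lectin receptors and 0 of 12 MHC class I genes were 2-fold apart, and 1 of 18 adaptor and signalling genes was (Sh2d1b1, 60 and 6 UMIs, -1.23, -2.74 to -0.03). Medians were 0.25, 0.23, 0.25 and 0.14, or 0.16, 0.13, 0.22 and 0.13 without the 13 cells, beside 0.00 over all genes. In lists this short, counts of 0 or 1 lie near the shares over all genes. Among 6 inhibitory checkpoint genes at that depth 1 was higher and 1 lower, and all 6 had intervals that held 0. Early and late maturation lists both had positive medians, 0.49 and 0.53, with Emb alone past 2-fold. Within the late list Ly6c2 stood at -0.78 (1118 and 649 CPM) while Cma1 stood at 0.73 (0.07 to 1.35).

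Pgam1 itself (chr19:41911923-41918660, plus strand, build GRCm38), the gene deleted in adipocytes, had 83 UMIs in control and 21 in the KO cells, 75.0 and 80.7 CPM, and its log2 ratio was 0.11 (-0.66 to 0.81). Of 18 glycolysis genes with at least 10 UMIs, 1 was 2-fold higher in the KO cells and 0 lower, as for 21 respiration and mitochondrial biogenesis genes, beside 4.31% and 6.02% of all genes. These were Pgk1 (6 and 4 UMIs) and Ppargc1a (12 and 8 UMIs), named after their values were seen. Gapdh stood at 365 and 388 CPM and Ldha at 223 and 273 CPM. The medians were 0.22 and 0.05. Atp5a1 and Atp5b, subunits of ATP synthase, stood at -0.44 (-0.82 to -0.07) and -0.43 (-0.83 to -0.06).

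Cell cycle RNA sat in few control cells. Top2a had 59 UMIs in control and 0 in the KO cells, with 98.3% of them in 10 cells, and Stmn1 50 and 4 UMIs. A UMI of Mki67 or Top2a was found in 12 of 229 control cells and 1 of 43 KO cells. Immediate early genes, which digestion of tissue is known to induce, split in sign. Fosb (-1.68, -2.58 to -0.90), Egr1 (-1.76, -3.11 to -0.67), Jun (-1.65, -2.90 to -0.62) and Zfp36 (-1.22, -1.77 to -0.72) were lower in the KO cells, while Junb stood at 0.56 (0.37 to 0.74) and Dusp2 at 0.57 (0.17 to 0.96). Without the 13 cells Fosb and Egr1 stood at -1.41 and -1.78, but Jun and Zfp36 at -0.83 and -0.49.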

How the data were processed

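The authors deposited raw UMI counts per gene and barcode for 2 libraries, made per the submitters' processing notes with Cell Ranger 3.0.1 on mouse build mm10, with Seurat 3.1.5 and R 4.0.1 also named there. Barcodes had already been called as cells. The libraries held 42859406 (control) and 13821581 UMIs (KO), and the NK cells without CD3 held 1106395 and 260235.

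The cells and the gene lists were chosen with earlier results of these data known. UMIs were summed over cells per library and given as CPM with exact Poisson 95% intervals, ratios had exact conditional binomial intervals, and shares had Clopper-Pearson intervals. All these intervals reflect counting error alone. No p-value was given for single libraries, and called means past 2-fold among genes with at least 50 UMIs (10 for lists), counts under 3 set to 3. UMIs mark 3′ ends and were not divided by gene length. Named genes were listed genes with at least 50 UMIs, the 10 largest rises and falls between libraries, and the 10 genes most above and most below CD3 positive cells with NK receptors in the control library that were past 2-fold the same way in the KO library. A gene that this rule names is not reported here. The most abundant genes were ranked in the control NK cells, with ribosomal and mitochondrial genes and Malat1 left out. The first 15 were Gm42418, Tmsb4x, Actb, Hbb-bs, Tpt1, Ccl5, Eef1a1, Fau, Hba-a1, B2m, H2-K1, Hba-a2, Actg1, Tmsb10 and Gzma. Promoters came from RefSeq (GRCm38.p6). No doublets were removed in the main result. Scrublet scores from scanpy 1.11.5 served an alternative setting alone, in which the 581 control and 60 KO barcodes with the highest scores were removed. Calls by Scrublet's own threshold were recorded as 0, a value that may also mean that no threshold was set. Other tools were numpy 2.4.6, pandas 2.3.3, scipy 1.17.1 and matplotlib 3.10.9 under python 3.11.15, and R 4.3.3 with edgeR 4.0.16 for scaling factors alone. The intervals and calls were tested on simulated Poisson counts per library. Such counts leave out the clustering of UMIs in a few cells, so that test cannot show how the intervals hold for clustered genes.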

Additional observations from a re-analysis of the deposited data

Results flagged for a closer look

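Ratios of NK cells without CD3 over CD3 positive cells with NK receptors took opposite signs in the libraries for 7 named genes, with counting intervals that left out 0 on both sides. With 1 library per genotype the difference between libraries was not tested. Ccl4 stood at a log2 ratio of 1.53 in control and -0.65 in the KO library, and Gzmb at 0.55 and -0.94. Ptpn6, the phosphatase SHP-1 behind inhibitory receptors, stood at 0.64 and -0.89. Fosb stood at 0.38 and -0.99, Klra9 at 0.40 and -0.40, Ccl5 at -0.23 and 0.20, and the integrin gene Itga4 at -0.34 and 0.42. For Gzmb the levels were 349 and 323 CPM in the cells without CD3 and 238 and 621 CPM in the CD3 positive cells. For Ccl4 they were 994 and 361 CPM against 345 and 566 CPM.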

How the results depend on the processing

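No paired analysis was possible because each genotype has 1 library. Of 3563 recomputed values of 244 genes, 3172 stayed inside the counting interval of the reported value, 386 left it, and 5 took the opposite sign of a reported value past 2-fold. Sign changes of smaller values were not counted apart. Those 5 were Zfp36 at 0.27 with a rule sum of at least 1 UMI, Sh2d1b1 at 3.13 without cells holding Trac, Trbc1 or Trbc2, Lilrb4a at 0.65 without the 13 cells rich in MHC class II, Hba-a2 at 0.096 without cells holding at least 100 haemoglobin UMIs, and Stmn1 at 0.60 with cells thinned to 2000 UMIs. Pgam1 stayed inside its interval in 14 of 14 settings, with values on both sides of 0 (-0.39 to 0.14).

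The share of control cells was 5.17% with 1000 or more genes and 5% or less mitochondrial UMIs, 4.33% with limits of 200 genes and 20%, 6.85% with a sum of at least 1 UMI, and 0.979% without Trac, Trbc1 or Trbc2 UMIs. The KO share was 3.26% and 0.209% in the first and last of these. Genes 2-fold higher in the KO library numbered 81 with at least 1000 genes a cell, 77 with a sum of at least 1, 28 thinned, 27 without the 13 cells, 224 with at least 20 UMIs a gene and 14 with at least 100. Genes 2-fold lower numbered 32 without Trac, Trbc1 or Trbc2, 82 thinned, 146 without the 13 cells, 545 with at least 20 UMIs and 65 with at least 100. The higher share of all calls was 15.9%, but 30.3% with at least 1000 genes, 61.9% without Trac, Trbc1 or Trbc2 and 29.1% with at least 20 UMIs. Against CD3 positive cells, higher genes numbered 65 in the KO library, 82 thinned and 495 with at least 20 UMIs, and lower genes 37 thinned and 251 with at least 20. In the Eomes split, higher and lower genes numbered 19 and 20 in the KO library, 21 and 13 thinned, and 51 higher without the 13 cells. In the maturation split they numbered 13 and 22 in the KO library, with 46 lower without the 13 cells. Settings that leave fewer cells or UMIs also test fewer genes, and the cause of each shift was not tested. The settings on the 13 cells, on haemoglobin and on a sum of at least 4 UMIs were chosen after seeing the data. Removing the highest Scrublet scores took out 10 control and 0 KO cells.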

Other observations

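Stress hormone and circadian genes of the NK cells without CD3 were also measured. Of 9 glucocorticoid response genes with at least 10 UMIs, 1 was 2-fold higher in the KO cells (Cxcr4) and 0 lower, with a median log2 ratio of 0.43, where 4.31% of all genes at that depth were higher and 6.02% lower. Fkbp5, a chaperone induced by glucocorticoids, stood at 52.4 CPM in control and 99.9 CPM in the KO cells (0.93, 0.20 to 1.62), and Nr3c1, the receptor itself, at 139 and 211 CPM (0.60, 0.13 to 1.06). Clock genes were sparse: 0 of 9 were 2-fold apart, with a median of -0.03. The median over 17 interferon response genes was 0.11, with 2 higher and 1 lower.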
